A study of Mus musculus with 8 samples.

Results

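The series asked how 2 integrin α subunits, α3 and α9, shape gene expression in keratinocytes, and the question here is whether the effect of α3 is the same where α9 is present. RNA was measured in 8 samples, 2 from each of 4 mouse lines, on Affymetrix Mouse Exon 1.0 ST arrays, which read a transcript with many probes along its exons. All 8 samples enter the comparison, so its members are 8 of 8. The null line, MK546, is an epidermal keratinocyte line from newborn mice that lack α3, immortalized with SV40 large T antigen. The α3 line is MK546 with human α3 from stable transfection, the α9 line is MK546 with human α9 from retroviral transduction, and the α3α9 line carries both. All 4 lines therefore share the absence of mouse α3, the large T antigen, growth on denatured collagen in low calcium, and a medium that holds interferon-γ, EGF, insulin and hydrocortisone. The labels do not say whether a line is 1 clone, so an effect of a subunit cannot be told apart from a difference between lines that carry it and lines that do not.

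Integrins are adhesion receptors made of an α and a β subunit, and both α3 and α9 pair with β1. α3β1 binds laminin-332 in the basement membrane under the epidermis, and α9β1 binds ligands such as tenascin-C and fibronectin with the EDA segment. Both are known in wound keratinocytes, where adhesion, matrix proteases, growth factor signalling and innate defence change together. The choice of scale matters, since effects that add up in intensity need not add up in log2. Here the effects of the 2 receptors are compared with their sum on the log scale. A departure from that sum is called an interaction, and it is the quantity described throughout.

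For each of 23332 transcript clusters the α3 effect without α9 was the α3 line minus the null line. The α3 effect with α9 was the α3α9 line minus the α9 line. The interaction was the second effect minus the first, on the scale of log2(intensity + 16) after each array was scaled to a common median. All values below are intensities scaled in this way, in arbitrary units, or differences of their log2 values ± SE. The pseudocount of 16 understates changes of dim transcripts. Adjusted p-values come from limma with Benjamini-Hochberg adjustment over all clusters, and a call is an adjusted p under 0.05. Each line had 2 arrays, which the labels call biological replicates without naming separate cultures, so the p-values reflect only how far these arrays differ, part of which may be technical.

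The arrays differed in brightness before scaling, with medians from 82.8 to 126.7, both in the α3α9 line. After scaling, the residual SD was 0.211 to 0.214 on the log2 scale in 3 lines and 0.273 in the α3α9 line. Per the titles, both lines without α9 are marked re-analysis, and both lines with α9 carry no such mark. Each α3 effect therefore lies within 1 set of arrays. A constant shift between the sets cancels in the interaction, but a set that stretched or shrank α3 effects cannot be told apart from α9. Keratinocyte markers were bright on all arrays, with Krt14 at 8553 to 12936 and Trp63 at 549.5 to 1364. The leukocyte marker Ptprc gave 21.9 to 29.97, the melanocyte marker Tyr 14.5 to 26.5 and the fibroblast marker Dcn 11.3 to 27.4. Each is 1 member of its list. The 7 measured fibroblast markers summed to 605 to 741 and the 6 melanocyte markers to 268 to 345. The 7 endothelial markers summed to 307 to 436, and 1 of them rose with α3 in both settings. Of 7 measured keratinocyte markers, 1 fell with α3 in both settings. No member of the 6 marker lists passed the interaction test. Of those lists, the summed leukocyte markers were 594 to 759 in the null and α3 lines and 825 to 1130 in the α9 and α3α9 lines, most of it from Cd68, and the 2 measured simple epithelium markers were 2650 to 3690 in the lines without α3 and 8680 to 10500 in those with it. Of these, Krt19 rose with α3 in both settings, by 2.63 and by 3.24, and Krt18 did not pass in either. The part of these shifts in any result was not tested. The probes target mouse RNA, whereas both added subunits are human. Mouse Itga3 gave 775 to 1177 over all 8 arrays, with 1031 and 962 on the null arrays. Its signal was thus present in a line described as lacking mouse α3, and the cause was not tested. Itga9 gave 38.9 to 62.96. The signals of these 2 genes neither check nor contradict the labels. In bulk RNA, fewer cells expressing a gene and less RNA per cell cannot be told apart.

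Most α3 effects did not depend detectably on α9. Without α9, 1409 clusters (6.04%) passed, 666 higher (2.85%) and 743 lower (3.18%) with α3. With α9, 1886 (8.08%) passed, 1276 higher (5.47%) and 610 lower (2.61%). Of these, 563 passed both with the same sign, 40.0% of the first set and 29.9% of the second, and 32 passed both with opposite signs. The interaction itself passed in 149 clusters, 0.639% of all, with 74 above 0 (0.317%) and 75 below 0 (0.321%). Of the clusters passing without α9, 91 (6.46%) passed the interaction, and of those passing with α9, 113 (5.99%). At an unadjusted p under 0.05 there were 3516 clusters (15.1%). With all 8 arrays, other settings gave from 20 calls (no scaling) to 696 (clusters with 1 gene only). The split of calls above and below 0 depends on scaling. The deposited values without scaling gave 3 above 0 and 17 below, and cyclic loess gave 61 and 104. The median interaction of all clusters was 0.08 here, -0.06 without scaling and 0.001 after loess. For each of the 149, every choice of 1 array per line, 16 in all, gave the same sign, as it did for 30.1% of all clusters.

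The 149 calls were sorted by which α3 effects passed, as the plot of the α3 effect with α9 against that without α9 shows. In 36 the α3 effect passed only without α9 and was smaller with it (suppressed). In 30 both effects passed with opposite signs (reversed), and in 58 the effect passed only with α9 and was larger there (created). In the last 25 both passed with 1 sign and different size, 11 of them smaller with α9. One gene symbol was attached to 120 of the 149 clusters, and 23 are unnamed here. Leaving out 1 array gave from 8 calls (without array 2 of the null line) to 162 (without array 2 of the α3α9 line). In each of these fits all 149 kept their sign. That follows from the 16 choices above, since each such fit averages some of them, and it is no further check. Of the 49 calls named by rule, 8 passed without each array in turn: Car6, Klf15, Tslp, Sulf1, Sostdc1, Rbms3, Mctp1 and Mcpt8.

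**Figure D1:**
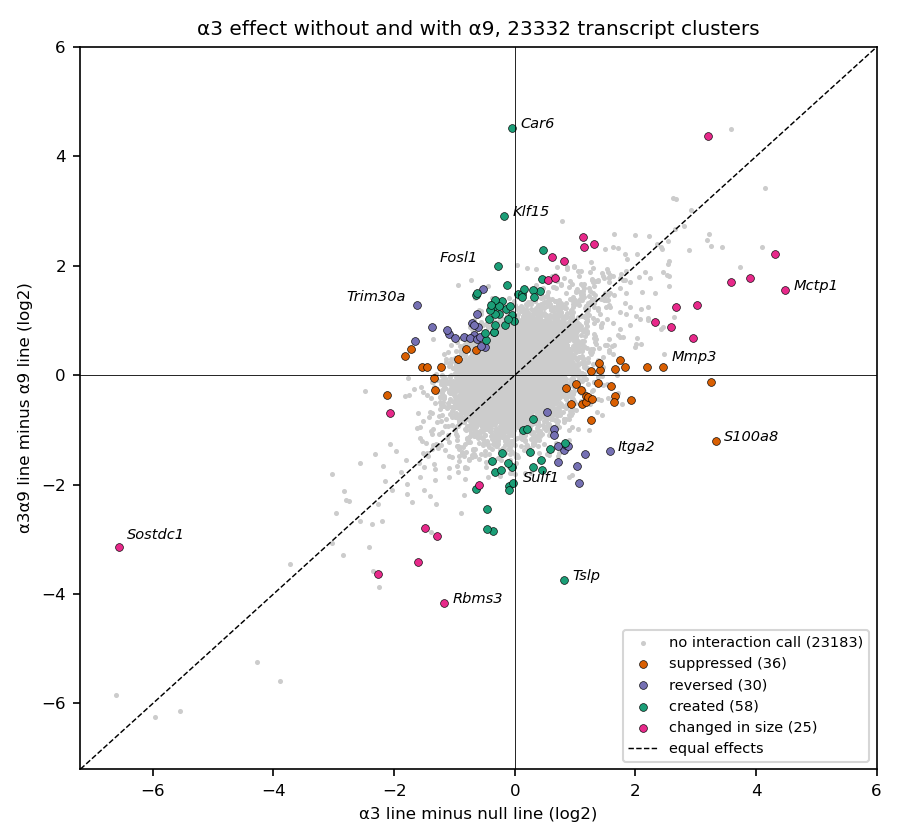
The α3 effect without α9 (horizontal, log2) against the α3 effect with α9 (vertical, log2) for all 23332 transcript clusters. Each point is a cluster, coloured by class where the interaction passed, and the dashed line marks equal effects. The 36 suppressed clusters lie closer to 0 on the vertical than on the horizontal axis, the 58 created ones closer to 0 on the horizontal axis, and the 30 reversed ones in the quadrants of opposite sign. Effects that missed the threshold need not be near 0, as with S100a8 at -1.19 with α9.

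The interferon response list, of antiviral genes, is described first. Interferons switch on a shared programme of genes that sense or block viral RNA, and keratinocytes carry this programme. All 4 lines here grew with interferon-γ. Of its 28 measured members, 14 fell with α3 where α9 was absent and none rose. With α9 present, 5 fell and 3 rose. Over all clusters 3.18% fell and 2.85% rose without α9, and 2.61% fell and 5.47% rose with it. Of all clusters passing without α9, 40.0% also passed with it with the same sign and 2.27% with the opposite sign. Of the 14 members that fell, 3 also fell with α9, 10 did not pass there and 1, Ifih1, rose. Ifih1 encodes MDA5, a sensor of viral RNA. Its α3 effect was -0.75 without α9 and 0.70 with it, and its interaction of 1.45 ± 0.23 narrowly missed the threshold (adjusted p = 0.053). The interaction was above 0 for 25 of the 28, with a median of 0.62, where 66.7% of genes with a symbol were above 0 with a median of 0.11. It passed for 2 members, Ifit1 and Ifit2. The median of the list stayed between 0.55 and 0.72 with any 1 array left out. The call counts moved more: the number that fell without α9 was 5 and 4 without array 1 or 2 of the null line, and 3 and 5 without array 1 or 2 of the α3 line. No member passed the interaction without array 2 of the null line, array 1 of the α3 line or either α9 array, and 1 passed without array 2 of the α3 line or array 1 of the α3α9 line. The 3 that rose with α9 became 0 without array 2 of the α9 line or array 1 of the α3α9 line. Without array 1 or 2 of the null or α3 line they became 1. The 5 that fell with α9 became 1 without either α9 array and 2 without either α3α9 array.

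Ifit1 binds viral RNA that lacks the host's cap methylation. It gave 655 and 963 on the null arrays, 244 and 218 in the α3 line, 2431 and 2937 in the α9 line, and 4091 and 3396 in the α3α9 line. Every array of the α3 line was below the null arrays, and both α3α9 arrays were above the α9 arrays. The α3 effect was -1.72 without α9 and 0.48 with it, the latter not passing, for an interaction of 2.20 ± 0.29 (limma, adjusted p = 0.033). Ifit2, its neighbour on chromosome 19, gave 231 and 272, then 51.7 and 68.3, then 1079 and 1026, then 1307 and 1374, in the same order of lines. Its interaction was 2.16 ± 0.21 (adjusted p = 0.013). Ifit genes are close paralogs, and no source used here says how far the probes separate them. The Ifit1 call ended (adjusted p up to 0.14) without array 2 of the null line, array 1 of the α3α9 line, or any 1 array of the α3 or α9 line. The Ifit2 call ended (up to 0.068) without array 2 of the null line, array 1 of the α3 line or either α9 array.

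In 4 further genes tied to antiviral defence, which are not members of that list, the α3 effect passed in both settings and changed sign. Trim30a, an interferon-induced TRIM protein, gave 144 and 176 on the null arrays, against 43.1 and 38.9 with α3 alone. In the α9 line it gave 732 and 563, and in the α3α9 line 1592 and 1572. It was lower with α3 by 1.62 without α9 (-1.62 ± 0.16) and higher by 1.28 ± 0.16 with α9, an interaction of 2.91 ± 0.23 (adjusted p = 0.0056). Cmpk2, a mitochondrial nucleotide kinase induced by interferon, gave 423 and 460, then 139 and 120, then 723 and 662, then 1079 and 1059. Only the α3 line stood apart from the others, and the effects of -1.66 and 0.62 gave an interaction of 2.27 ± 0.17 (adjusted p = 0.0056). Ddx60, a helicase that promotes RNA sensing, had effects of -1.37 and 0.89 (interaction 2.26 ± 0.26, adjusted p = 0.021). Parp14, an ADP-ribosyltransferase, had -1.13 and 0.82 (1.95 ± 0.21, adjusted p = 0.018). With 1 array left out, both Trim30a and Cmpk2 lost the call only without array 2 of the null line. Both also lost it without scaling of arrays. Parp14 lost it (up to 0.092) without all arrays but array 2 of the α3α9 line. Ddx60 lost it (up to 0.11) without all but array 1 of the α9 line and array 2 of the α3α9 line.

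The reversed calls also held Tlr3 and Tnfsf10, which fall outside the naming rule; they were picked once their values had been seen. Tlr3, the endosomal receptor for double-stranded RNA, gave 856 and 888 on the null arrays, 620 and 541 in the α3 line, 577 and 496 in the α9 line and 849 and 907 in the α3α9 line. Tnfsf10, the death ligand TRAIL, gave 57.3 and 68.97, then 21.7 and 26.2, then 29.8 and 35.1, then 55.2 and 67.8. In both, the null and α3α9 lines were alike and the 2 lines with a single subunit were lower. Their interactions were 1.27 and 1.66 (adjusted p = 0.040 and 0.026). The Tlr3 call ended (up to 0.17) without each array in turn, and under quantile, loess or median-centred values, and that of Tnfsf10 (up to 0.13) without each but array 2 of the α3α9 line. The transcription factors Stat2, Irf7 and Irf9 did not pass the interaction. Stat2 had effects of -1.15 and -0.09 (interaction 1.06, adjusted p = 0.075), Irf7 of -0.87 and 0.23 (1.10, adjusted p = 0.14) and Irf9 of -0.26 and 0.19 (0.45, adjusted p = 0.39). In antigen processing, a related interferon-γ target list, 2 of 14 members fell with α3 without α9, none passed with α9 and none passed the interaction. The share of all clusters that fell with α3 without α9 was 3.18%. All 14 interactions were above 0, with a median of 0.29. Among genes with a symbol 66.7% were above 0, with a median of 0.11.

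**Figure D2:**
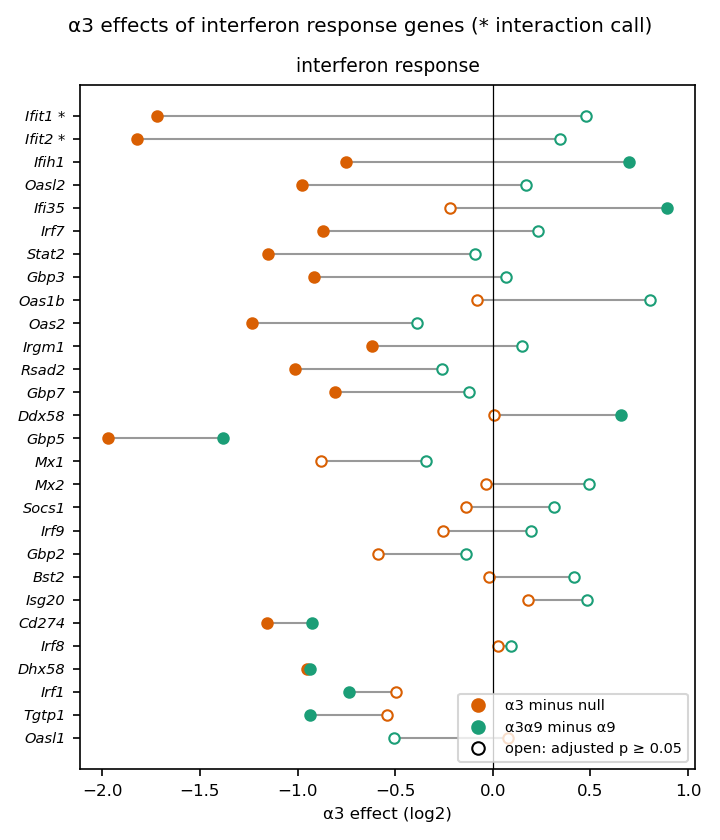
The α3 effect (log2) of the 28 measured interferon response genes without α9 (orange) and with α9 (green), ordered by the interaction. Filled points passed at an adjusted p under 0.05, and stars mark interaction calls. For 25 of 28 genes the green point lies right of the orange one.

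The promoters of these genes are shown because several carry the interferon-stimulated response element, a DNA site known from many interferon-induced genes. Sequences are from RefSeq on GRCm38.p6, 250 bases before to 50 after the start on the gene's strand. The element's core was searched as GAAANNGAAA on both strands and is in capitals. This motif was added after the values were seen. Ifit1 lies at chr19:34640639-34640938 (plus strand), with cores at -104 and -85 from the start. Trim30a lies at chr7:104465144-104465443 (minus strand, first of 2 starts), with a core at -36. Ddx60 lies at chr8:61927837-61928136 (plus strand), with cores at -53 and -19.
Ifit1: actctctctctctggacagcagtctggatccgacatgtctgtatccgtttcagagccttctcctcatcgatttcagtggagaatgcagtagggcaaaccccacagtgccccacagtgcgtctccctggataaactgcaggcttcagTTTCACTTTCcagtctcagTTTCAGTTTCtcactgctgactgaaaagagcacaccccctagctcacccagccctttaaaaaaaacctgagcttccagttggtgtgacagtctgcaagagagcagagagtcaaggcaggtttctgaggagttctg
Trim30a: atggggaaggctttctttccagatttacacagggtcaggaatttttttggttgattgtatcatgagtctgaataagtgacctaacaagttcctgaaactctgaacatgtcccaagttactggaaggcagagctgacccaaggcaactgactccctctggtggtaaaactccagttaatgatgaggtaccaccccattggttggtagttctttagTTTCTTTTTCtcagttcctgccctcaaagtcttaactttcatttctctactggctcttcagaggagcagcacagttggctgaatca
Ddx60: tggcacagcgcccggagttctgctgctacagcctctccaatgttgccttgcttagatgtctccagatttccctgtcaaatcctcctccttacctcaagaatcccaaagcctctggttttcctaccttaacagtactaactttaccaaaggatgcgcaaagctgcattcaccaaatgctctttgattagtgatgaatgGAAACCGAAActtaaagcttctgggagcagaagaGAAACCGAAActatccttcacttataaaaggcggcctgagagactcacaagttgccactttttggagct
Of 11869 measured genes with a promoter in the table, 3.8% held this core. It was in 5 of 47 promoters of calls above 0 (10.6%) and 1 of 45 of calls below 0 (2.22%). It was in 13 of 23 promoters of the interferon list (56.5%) and in 3 of 7 of the named antiviral calls (42.9%). Those 7 were picked by name for their antiviral role, include Tlr3 and Tnfsf10, and share Ifit1 and Ifit2 with the list. No core lay in these 300 bases of Ifit2, Cmpk2, Tlr3 or Tnfsf10. A match describes the letters only.

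A second group held alarmins, which are proteins and cytokines that keratinocytes release in injury and infection, and antimicrobial proteins. The list also holds Tnip3, an inhibitor of NF-κB signalling inside the cell, which is neither. Without α9, 8 of 16 measured members rose with α3 and none fell. With α9, 4 rose and 3 fell. Over all clusters 2.85% rose without α9, and 5.47% rose and 2.61% fell with it. The 4 that rose in both were Tnip3, Lcn2, Nos2 and Defb1, and the 4 that passed without α9 alone were S100a8, Il1f6, Slpi and Saa3. Of all clusters passing without α9, 40.0% also passed with it with the same sign, and 4 of 8 was near that share. The interaction passed for 4 members, all below 0, and 14 of 16 lay below 0 with a median of -0.99, where 66.7% of all genes with a symbol were above 0. The 8 that rose became 5 without array 1 of the null line or array 1 of the α3 line. The 4 interaction calls became 0 without array 2 of the null line or array 1 of the α3 line. They became 1 without array 1 of the null line or of the α3α9 line, and 2 without array 2 of the α3 line or array 1 of the α9 line. The median stayed between -1.11 and -0.86 in these fits.

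S100a8 forms the calcium-binding, antimicrobial complex calprotectin with S100a9. It gave 303 and 314 on the null arrays, against 2940 and 3585 with α3 alone. In the α9 line it gave 735 and 307, and in the α3α9 line 233 and 170. Only the α3 line was high, although the 2 α9 arrays differed more than 2-fold. The α3 effect was 3.33 without α9 and -1.19 with it, the latter not passing, for an interaction of -4.52 ± 0.51 (adjusted p = 0.018). Its partner S100a9 was dim, at 22.2 to 57.4 on all arrays, with effects of 0.58 and -0.63 (interaction -1.22, adjusted p = 0.075). Il1f6, the cytokine IL-36α, had effects of 2.48 and 0.38 (interaction -2.10 ± 0.49, adjusted p = 0.12). The S100a8 call ended (adjusted p up to 0.094) without any 1 array of the null or α3 line or array 1 of the α3α9 line.

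The other 3 members with calls followed other patterns. Tnip3 gave 103 and 106 on the null arrays, 1534 and 1310 in the α3 line, 32.9 and 21.97 in the α9 line and 124 and 125 in the α3α9 line. It rose with α3 in both settings, by 3.58 and by 1.70 (interaction -1.88 ± 0.22, adjusted p = 0.021). S100a7a gave 225 and 204, then 206 and 195, then 1034 and 970, then 211 and 234. Only the α9 line was high, and the α3 effect was -0.09 without α9 and -2.10 with it (interaction -2.01 ± 0.17, adjusted p = 0.0073). Defb3, a β-defensin, was dim in all lines, with 14.3 and 20.5, then 57.5 and 32, then 65.4 and 60.9, then 17.4 and 17.98. Its effects of 0.84 and -1.23 gave an interaction of -2.07 ± 0.29 (adjusted p = 0.037). By contrast, the iron-binding protein Lcn2 rose in both settings, by 4.15 and 3.43 (interaction -0.73, adjusted p = 0.32). The S100a7a call ended (up to 0.057) without array 2 of the null line or array 1 of the α3 line. The Tnip3 call ended (up to 0.10) without any 1 array of the null or α3 line, array 1 of the α9 line or array 1 of the α3α9 line. The Defb3 call ended (up to 0.14) without any 1 array but array 2 of the α3 line.

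The list of terminal differentiation genes, which build the cornified envelope, held more α3 effects that passed with α9 than without, a difference of counts that was not tested. Of 29 measured members, 5 fell and none rose without α9, and 12 fell and 2 rose with it. Over all clusters 3.18% fell and 2.85% rose without α9, and 2.61% fell and 5.47% rose with it. Of the 12 members, 3 fell in both. The share of all clusters passing with α9 that also passed without it, with the same sign, was 29.9%. The 12 became 6 without array 2 of the α9 line and 7 without array 1 of the α3α9 line. The interaction passed for 4, all small proline-rich (Sprr) envelope precursors, and all below 0. The list median of -0.05 lay below that of all genes (0.11). Of the 29, 15 were below 0, where 66.7% of genes with a symbol were above 0. The 4 calls became 0 without either null array or array 2 of the α3 line. They became 1 without array 1 of the α3 line, either α9 array or array 1 of the α3α9 line.

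Sprr2e gave 170 and 211 on the null arrays, 126 and 141 in the α3 line, 363 and 241 in the α9 line and 24.7 and 32.9 in the α3α9 line. Only the α3α9 line was low, and the α3 effect was -0.46 without α9 and -2.81 with it (interaction -2.35 ± 0.30, adjusted p = 0.026). Sprr2h, Sprr1b and Sprr2d were low in the α3α9 line in the same way. Their α3 effects were -0.02, -0.22 and -0.12 without α9 and -1.97, -1.74 and -1.60 with it (interactions -1.95, -1.51 and -1.49, adjusted p = 0.011, 0.022 and 0.042). Sprr1a fell with α3 in both settings (-2.57 and -2.66). Sprr2 genes are near copies of each other, so their calls are not independent and some signal may be shared between them. Sprr2h lost its call (adjusted p up to 0.063) without either null array, array 2 of the α3 line or array 2 of the α9 line. The other 3 lost it (up to 0.18) without array 1 or 2 of the null or α3 line, array 1 of the α9 line or array 1 of the α3α9 line. Sprr1b and Sprr2d also lost it without array 2 of the α9 line, and Sprr2d without array 2 of the α3α9 line.

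S100a8, S100a7a and these Sprr genes lie in the epidermal differentiation complex on chromosome 3. Counting calls at most 5 genes apart in the gene order, 7 calls formed 1 run there, the longest found. They were S100a7a, S100a8, Pglyrp3, Sprr2d, Sprr2e, Sprr2h and Sprr1b, and all 7 interactions were below 0. Pglyrp3, a peptidoglycan recognition protein, was high in the α3 line alone, at 568 and 431 against 131 to 308 elsewhere (interaction -2.09 ± 0.30, adjusted p = 0.040). Within the run the line that stood apart differed by gene: the α3 line for S100a8 and Pglyrp3, the α9 line for S100a7a and the α3α9 line for the 4 Sprr genes. Krt16, an activation keratin on chromosome 11, fell with α3 in both settings, from 1533 and 1517 to 655 and 576 without α9 and from 2122 and 2629 to 261 and 330 with it. The fall was larger with α9 (effects -1.29 and -2.94, interaction -1.65 ± 0.23, adjusted p = 0.037). The Pglyrp3 call ended (up to 0.18) without each array in turn, and that of Krt16 (up to 0.18) without each but array 2 of the α3α9 line.

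**Figure D3:**
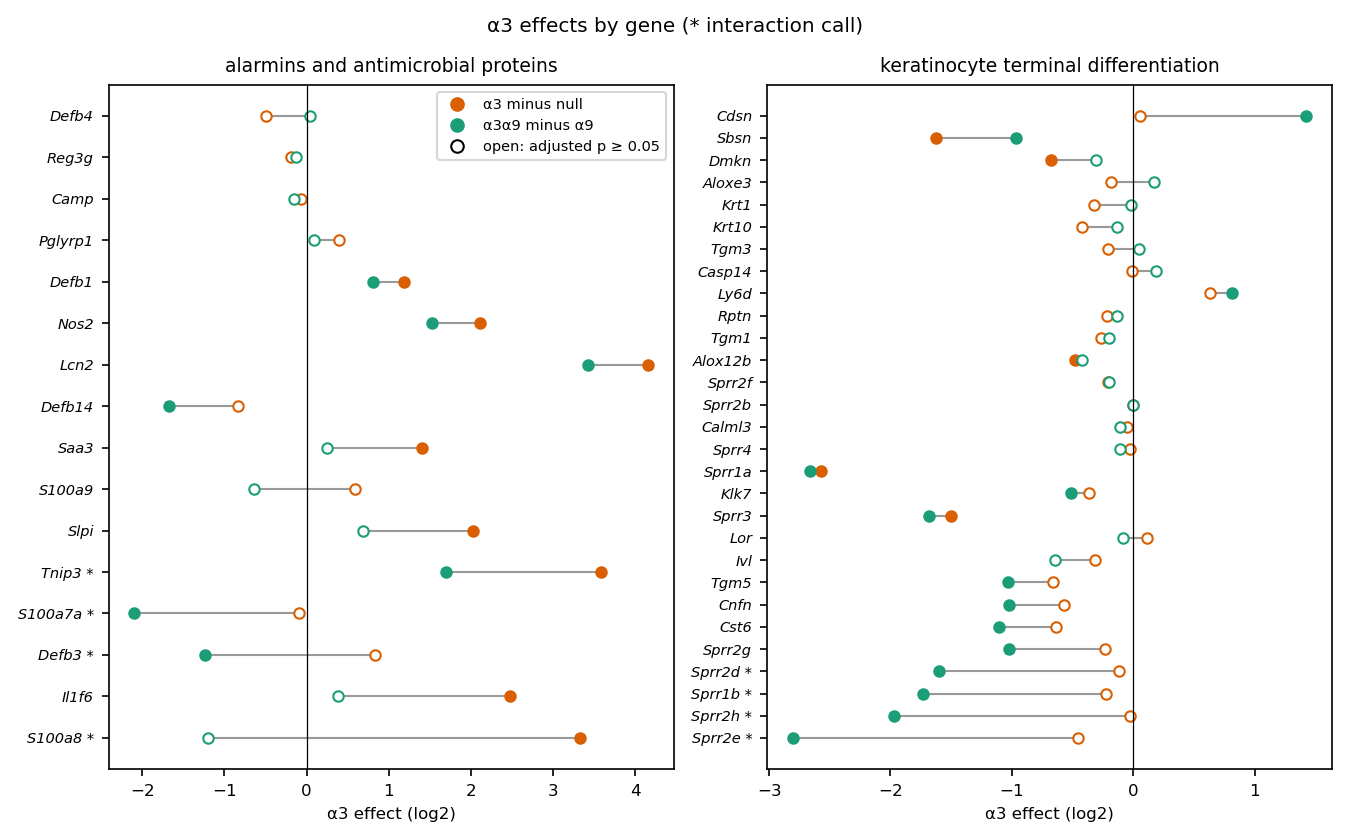
The α3 effect (log2) without α9 (orange) and with α9 (green) for the 16 measured members of the alarmin and antimicrobial list (left) and 29 terminal differentiation genes (right), ordered by the interaction. Filled points passed at an adjusted p under 0.05 and stars mark interaction calls, 4 in each panel, all with the green point to the left.

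Among receptors and matrix enzymes, the α3 effect had opposite signs without and with α9 for Itga2, the subunit that pairs with β1 to bind collagen. Itga2 gave 90.6 and 105 on the null arrays, 334 and 310 in the α3 line, 242 and 159 in the α9 line and 72.3 and 59.97 in the α3α9 line. It was high with either subunit alone and low with neither or both. The α3 effects were 1.57 and -1.38, an interaction of -2.95 ± 0.28 (adjusted p = 0.012), and it was the only one of 20 measured integrin subunits to pass. Itgb1, the shared β1 subunit, had effects of -0.53 and -0.47 and an interaction of 0.06 (95% interval -0.41 to 0.54). Sulf1, a sulfatase that edits heparan sulfate outside the cell, gave 491 and 548, then 1081 and 1072, then 1688 and 1786, then 563 and 520. As for Itga2, both lines with 1 subunit were high, and the effects of 1.03 and -1.65 gave an interaction of -2.68 ± 0.17 (adjusted p = 0.0024). The Itga2 call ended (adjusted p up to 0.073) without any 1 array of the null or α3 line, and that of Sulf1 passed without each array in turn.

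Mmp3, the protease stromelysin-1, was the largest suppressed member of 16 measured matrix metalloproteinases and inhibitors. It gave 45.2 and 47.9 on the null arrays, 330.0 and 328 in the α3 line, 36.7 and 37.9 in the α9 line and 58.6 and 30.6 in the α3α9 line. Only the α3 line was high, with effects of 2.46 and 0.15 (interaction -2.32 ± 0.29, adjusted p = 0.026). Mmp1b, a neighbouring interstitial collagenase gene on chromosome 9, is outside the list and was chosen after its values were seen. It gave 86.2 and 76 in the α3 line and 8.33 to 26.9 elsewhere (interaction -1.72, adjusted p = 0.018), and its call ended (up to 0.089) without each array but array 2 of the α3α9 line. Hsd11b1, which regenerates active glucocorticoid, and Adam22, a receptor of the ADAM family without protease activity, were suppressed in another way. Hsd11b1 gave 276 and 368 in the null line and 835 to 1470 on the other arrays (interaction -2.38 ± 0.28, adjusted p = 0.022). Adam22 gave 32.4 and 36.2 in the null line and 137 to 242 elsewhere (-2.14 ± 0.18, adjusted p = 0.0073). In both the level with α9 alone was already as high as with α3. The Mmp3 call ended (up to 0.13) without any 1 array of the first 3 lines, and that of Hsd11b1 (up to 0.12) also without array 1 of the α3α9 line. The Adam22 call ended (up to 0.057) without array 2 of the null line or array 1 of the α3 line.

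The created effects included the largest interactions in both directions. Car6, the secreted carbonic anhydrase, gave 78.4 and 95.02 on the null arrays, 81.9 and 83.7 in the α3 line, 87.1 and 111 in the α9 line and 2458 and 2733 in the α3α9 line. Only the line with both subunits was high. The α3 effect was -0.05 without α9 and 4.51 with it (interaction 4.56 ± 0.21, adjusted p = 0.0016). Klf15, a transcription factor that glucocorticoid induces in many tissues, gave 31.8 and 26.2, then 25.9 and 21.8, then 25.6 and 31.1, then 301 and 331. It too was high only with both, with an interaction of 3.08 ± 0.19 (adjusted p = 0.0024). Of 19 measured glucocorticoid-responsive genes, Klf15 alone passed, and the list median was 0.02. Both calls passed without each array in turn.

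Tslp, the epithelial cytokine that starts type 2 inflammation in skin, gave 21.9 and 39.3 on the null arrays, 63.3 and 66.04 in the α3 line, 352 and 284 in the α9 line and 10.8 and 6.80 in the α3α9 line. It was high with α9 alone and lowest with both. The α3 effect was 0.82 without α9, not passing, and -3.75 with it. The interaction of -4.56 ± 0.29 (adjusted p = 0.0024) passed without each array in turn, and no other of 17 measured epithelial cytokines passed. Rbms3, an RNA-binding protein, was also high in the α9 line alone, at 1033 and 1132 against 32.3 to 97.2 elsewhere. It fell with α3 in both settings (-1.17 and -4.16), and its interaction of -3.00 ± 0.17 (adjusted p = 0.0024) passed without each array too. Nt5e, the surface enzyme CD73, and Ccng2, cyclin G2, were likewise highest in the α9 line, at 3012 and 3209 and at 857 and 814 (interactions -1.45 and -2.19, adjusted p = 0.046 and 0.0056). The Ccng2 call ended (0.055) without array 2 of the null line, and that of Nt5e (up to 0.19) without each array in turn.

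Fosl1 and Ier2, immediate early genes downstream of ERK, were low in the α9 line alone. Fosl1, a subunit of the transcription factor AP-1, gave 514 and 553 on the null arrays, 463 and 416 in the α3 line, 139 and 94.04 in the α9 line and 524 and 483 in the α3α9 line. The α3 effect was -0.27 without α9 and 1.99 with it (interaction 2.26 ± 0.25, adjusted p = 0.018). Ier2 gave 429 and 577, then 368 and 384, then 171 and 140, then 411 and 390 (1.67 ± 0.24, adjusted p = 0.037). The ERK phosphatase Dusp6 had the largest interaction of the list, 2.47 ± 0.43, but its α9 arrays of 485 and 242 differed and it did not pass (adjusted p = 0.066). Of 26 measured genes of ERK output and feedback, these 2 passed, 18 were above 0 and the median was 0.21, against 66.7% above 0 and a median of 0.11 over all genes with a symbol. The 2 calls became 0 without either null array, either α3 array or array 1 of the α3α9 line. They became 1 without array 2 of the α9 or α3α9 line. Ier2 lost its call (up to 0.18) without each array in turn, and Fosl1 (up to 0.091) without those 5.

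The created calls above 0 also held 5 genes outside the naming rule, picked once their values had been seen, so nothing is said of the processes they belong to. Pcf11 and Wdr33, of the cleavage and polyadenylation machinery, Ppp1r10, a phosphatase subunit at RNA polymerase II, Hexim1, an inhibitor of elongation, and Dgcr8, of microRNA processing, are the 5. Ppp1r10 gave 1745 and 1686 on the null arrays, 1293 and 1428 in the α3 line, 857 and 800.1 in the α9 line and 2216 and 1824 in the α3α9 line. Dgcr8 gave 879 and 829, then 717 and 753, then 306 and 216, then 712 and 661. Their interactions were 1.60 and 1.57, and those of Pcf11, Wdr33 and Hexim1 were 1.61, 1.44 and 1.38 (adjusted p = 0.016 to 0.0496). All 5 had their lowest level in the α9 line. Wdr33, Hexim1 and Dgcr8 did not pass under quantile or loess values. Each call ended (adjusted p up to 0.20) without any 1 array of the null or α3 line or array 2 of the α9 line. They also ended without array 1 of the α9 line except Dgcr8, without array 1 of the α3α9 line except Pcf11, and, for Hexim1 and Dgcr8, without array 2 of the α3α9 line.

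Where both α3 effects passed with 1 sign, the size differed. Sostdc1, a secreted antagonist of BMP and Wnt signals, gave 12340 and 13867 on the null arrays, against 106 and 140 with α3 alone. In the α9 line it gave 673 and 619, and in the α3α9 line 58.1 and 59.1. It fell with α3 in both settings (-6.57 without α9 and -3.15 with it), with either subunit alone far below the null line (interaction 3.42 ± 0.21, adjusted p = 0.0024). Mctp1, a calcium-binding membrane protein, gave 26.4 and 19.1, then 886 and 807, then 12.7 and 12.6, then 75.4 and 61.5. Its rise with α3 was 4.48 without α9 and 1.56 with it (interaction -2.93 ± 0.21, adjusted p = 0.0044). Mcpt8 (a mast cell protease gene with close paralogs) gave 499 and 501 in the α3 line, 99.9 and 100.1 in the α3α9 line and 46.9 to 58.6 in the others (interaction -2.27 ± 0.16, adjusted p = 0.0048). All 3 calls passed without each array in turn.

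Other rises with α3 were smaller on the log2 scale where α9 was present. Glipr2 rose by 3.90 and 1.77, and Tnfrsf26, of the TNF receptor family, by 4.32 and 2.21 (interactions -2.13 and -2.11, adjusted p = 0.022 and 0.015). Glipr2 gave 971 and 909 in the α3 line and 85.2 and 118 in the α3α9 line. Tnfrsf26 gave 188 and 170 on the null arrays and 4115 and 3663 in the α3 line. In the α9 line it gave 1131 and 1039, and in the α3α9 line 5700 and 4516, so it was highest with both. Tfpi, the inhibitor of tissue factor, rose by 2.67 and 1.25 (-1.42, adjusted p = 0.022). In other genes the rise was larger with α9. Tns1, the adhesion adaptor tensin 1, gave 42.6 and 42.8 on the null arrays, 75.6 and 73.3 in the α3 line, 47.3 and 40.5 in the α9 line and 281 and 226 in the α3α9 line. It rose by 0.62 and by 2.16 (interaction 1.54 ± 0.19, adjusted p = 0.026), and was the only one of 24 focal adhesion genes to pass. Limch1, an activator of non-muscle myosin, rose by 1.14 and 2.52 (1.38, adjusted p = 0.026) and the potassium channel Kcnk5 by 0.81 and 2.10 (1.28, adjusted p = 0.026). Svop, a transporter-like protein, rose by 2.28 with α9, with 0.47 not passing without it (1.81, adjusted p = 0.013). The Glipr2, Tfpi, Tns1, Limch1 and Kcnk5 calls ended (adjusted p up to 0.14) without each array but array 2 of the α3α9 line. That of Tnfrsf26 ended (up to 0.088) without any 1 array of the first 3 lines, and that of Svop (up to 0.083) without array 2 of the null line or any 1 array of the α3 or α9 line.

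**Figure D4:**
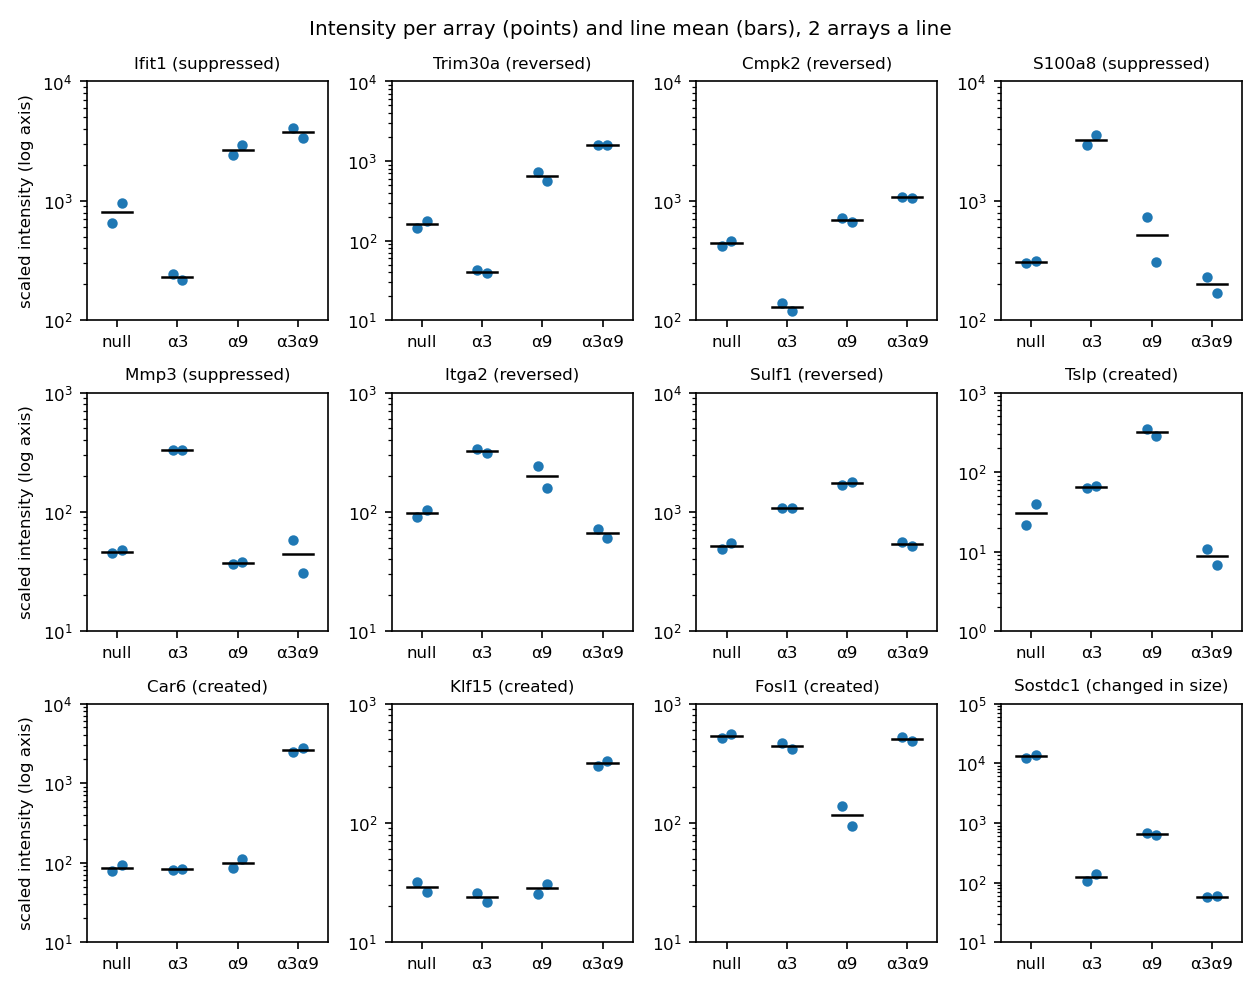
Scaled intensity (log axis, arbitrary units) of 12 genes on each of the 8 arrays, with points for arrays and bars for line means (n = 2). Ifit1, Trim30a and Cmpk2 are lowest in the α3 line, S100a8 and Mmp3 are high only there, Itga2 and Sulf1 are high with either subunit alone, and Car6 and Klf15 are high only with both.

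The remaining named calls were genes of mixed function. In the suppressed class, Rps4l, Ak3, Enox2 and Vegfd fell with α3 without α9, with effects of -2.11, -1.45, -1.33 and -0.94. With α9 their effects were -0.35, 0.15, -0.05 and 0.30, none passing. Vegfd, a growth factor for lymphatic vessels, gave 823 and 831 on the null arrays, 453 and 398 in the α3 line, 1228 and 1232 in the α9 line and 1551 and 1477 in the α3α9 line (interaction 1.23 ± 0.16, adjusted p = 0.033). In the reversed class, Il5ra, a cytokine receptor chain, had effects of 1.16 and -1.45, and the placental prolactin family members Prl8a9 and Prl8a6 had 0.72 and -1.58 and 0.89 and -1.29. The Prl8a genes are neighbours and paralogs on chromosome 13. Nkrf, a repressor of NF-κB targets, had -0.62 and 1.12. The Il5ra and Prl8a calls were all below 0 (adjusted p = 0.0073 to 0.013) and that of Nkrf above it (0.018). B4galnt2, a glycosyltransferase, was created (1.76, adjusted p = 0.017), and Zfp358 changed in size (1.38, adjusted p = 0.027). Of these 10 genes, Il5ra lost its call only without array 2 of the null line (0.057), Prl8a9 without either null array or array 2 of the α9 line (up to 0.066) and Prl8a6 without array 2 of the null or α3 line (up to 0.057). B4galnt2 lost it without any 1 array of the first 3 lines (up to 0.089), Rps4l, Ak3 and Nkrf without each but array 2 of the α3α9 line (up to 0.13), and Enox2, Vegfd and Zfp358 without each in turn (up to 0.15).

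Which line stood apart from the other 3 was counted over the 149 calls, where the gap between that line and its nearest neighbour on the log2 scale exceeded the span of the others. The α3 line was high in 21 and low in 7, the α9 line high in 19 and low in 19, and the α3α9 line high in 17 and low in 12. The null line was high in 3 and low in 9. In 42 no line stood apart, 21 of them reversed. Of the 36 suppressed clusters, 15 were high in the α3 line alone. Of the 58 created clusters, 30 had the α9 line apart and 20 the α3α9 line. This count describes the calls and follows in part from how the classes are defined.

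**Figure D5:**
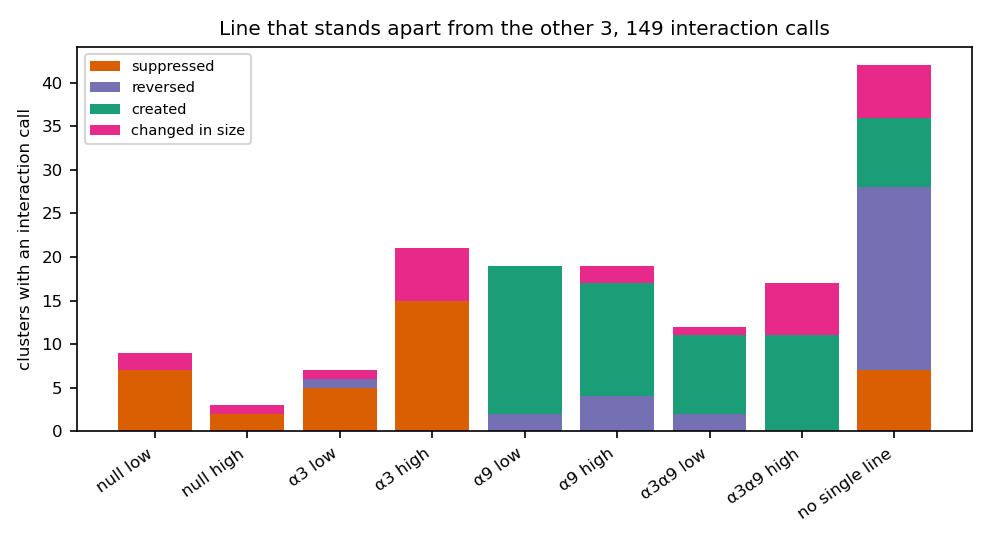
Number of interaction calls (vertical) by the line that stood apart from the other 3 (horizontal), stacked by class, 149 clusters in all. Of the 36 suppressed calls 15 are high in the α3 line, of the 58 created calls 30 have the α9 line apart, 20 the α3α9 line and 8 have no single line apart, and 21 of the 30 reversed calls have no single line apart.

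Genes tied to α3β1 by earlier work on these cells did not pass the interaction. Sparc, a matricellular protein, rose from 359 and 382 to 3678 and 3362 without α9 and from 544 and 560.1 to 3663 and 2699 with it. Its effects of 3.19 and 2.48 differed by -0.72 ± 0.23 (95% interval -1.25 to -0.18, adjusted p = 0.21). Fbln2, a basement membrane protein, rose by 1.91 and 1.70 (interaction -0.21, interval -0.87 to 0.45). Ptgs2, which makes prostaglandins, fell in both settings, with effects of -1.44 and -1.48 (-0.04, interval -0.57 to 0.48). Bmp1, which processes matrix proteins, had effects of -0.05 and -0.04 (0.01, interval -0.49 to 0.50), and Mmp9 of 0.42 and 0.12, neither passing (-0.30, interval -0.86 to 0.25). A p that misses the threshold does not show that these α3 effects were equal.

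Of the 34 gene lists, 19 had no interaction call. Cell cycle and replication, with 36 measured members, had none, although 5 fell with α3 without α9 and 17 with it, the 5 among the 17. Its median interaction was -0.29, with 24 members below 0. Among genes with a symbol the median was 0.11, and 66.7% were above 0. Over all clusters 3.18% fell with α3 without α9 and 2.61% with it. Of all clusters passing with α9, 29.9% also passed without it with the same sign, and 5 among 17 was near that share. The 17 became 7 and 4 without array 1 or 2 of the α9 line and 10 without array 2 of the α3α9 line. Integrin ligands and basement membrane (29 measured, median 0.08), hemidesmosome (9, 0.07), desmosomes and junctions (25, 0.10), Wnt signalling (32, 0.09), TGF-β (22, 0.01) and chemokines (16, 0.05) lay near the median of all genes and had no call.

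AP-1, the factor to which Fosl1 belongs, was searched as TGANTCA on both strands of the same RefSeq promoters. This motif takes any base at N, so a match need not be an AP-1 site. It was in 11 of 45 promoters of calls below 0 (24.4%), 2 of 47 of calls above 0 (4.26%) and 8.06% of all. Of the 11, 4 belong to Sprr2e, Sprr2h, Sprr2d and Sprr1b, which share ancestry, and the others include Mmp3, Mmp1b and Mctp1. The promoters of Mmp3 (chr9:7445572-7445871, plus strand, match at -46) and Sprr1b (chr3:92438730-92439029, minus strand, match at -111) are shown as a suppressed and a created example. The matched letters are in capitals, TGAGTCA in Mmp3 and TGAATCA in Sprr1b. In Sprr1b a TEAD match, GGAATG on the other strand, is in capitals too.
Mmp3: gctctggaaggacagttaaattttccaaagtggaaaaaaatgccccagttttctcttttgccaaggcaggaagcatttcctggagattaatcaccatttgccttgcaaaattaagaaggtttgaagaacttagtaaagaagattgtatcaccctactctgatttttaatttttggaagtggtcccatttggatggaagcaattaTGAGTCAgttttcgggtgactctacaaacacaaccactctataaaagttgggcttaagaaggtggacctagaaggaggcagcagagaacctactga
Sprr1b: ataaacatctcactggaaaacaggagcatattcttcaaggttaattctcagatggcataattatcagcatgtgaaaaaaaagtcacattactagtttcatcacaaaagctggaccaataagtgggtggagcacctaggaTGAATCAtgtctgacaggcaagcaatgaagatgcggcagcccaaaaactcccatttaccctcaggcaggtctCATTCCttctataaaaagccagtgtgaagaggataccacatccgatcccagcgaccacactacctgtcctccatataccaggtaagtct
The TEAD motif was in 20.0% of calls below 0, 12.8% of calls above 0 and 15.4% of all promoters. The E-box CACGTG was in 6.67%, 19.1% and 10.2%, with 3 matches in Klf15 and 1 in Car6. The glucocorticoid receptor core ACANNNTGT was in 6.67%, 4.26% and 6.32%, and not in the promoter of Klf15. These shares rest on 92 of 118 genes with calls and carry no test.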

How the data were processed

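RNA of 4 keratinocyte lines was measured on 8 arrays. The authors deposited linear intensities, with 1 value for each cluster on each array. The submitters' processing notes name Affymetrix Expression Console and PLIER, and the design text names the Exon Array Computational Tool. No source used here gives versions, a build or a filter. Samples were grouped by title. Each array was scaled to the median of the 8 array medians and log2(intensity + 16) was fitted by limma 3.58.1 (lmFit, then eBayes; R 4.3.3), with 1 mean for each line, which left 4 residual degrees of freedom. The 3 contrasts were adjusted by Benjamini-Hochberg over 23332 clusters. No cluster was filtered, and no pair of arrays shared over 1 identical value. The fit was tried on simulated data in which every line had the same spread. Here the α3α9 line spread more, so that trial does not check the calls of these data.

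Gene names came from the platform annotation: 14996 clusters had 1 gene, 1019 several and 7317 none listed. Symbols of 14805 of 14860 genes matched RefSeq of GRCm38.p6 by Entrez number. For 135 genes with several clusters the brightest was used. The 40 lists (6 of markers) hold 791 symbols, 662 measured. By rule the text names the 5 largest calls per class and direction, up to 4 calls per list, and 8 fixed genes. Members, lists and tests were chosen with earlier results of these data known. Alternatives are given in the closing section. The number of arrays limits the precision. Figures used matplotlib 3.10.9 in Python 3.11.15.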

Additional observations from a re-analysis of the deposited data

Results flagged for a closer look

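The 49 named genes with an interaction call are those in which the α3 effect differed between cells with and without α9 by the test of the difference itself (limma, Benjamini-Hochberg adjusted p under 0.05 over all clusters). No group held 4 or more arrays, so single arrays were not tested as outliers. Values are interactions on the log2 scale, the α3 effect with α9 minus that without. Where the α3 effect was suppressed, they were S100a8 -4.52, Hsd11b1 -2.38, Mmp3 -2.32, Adam22 -2.14 and Pglyrp3 -2.09 below 0. Above 0 in this class were Ifit1 2.20, Ifit2 2.16, Rps4l 1.76, Ak3 1.60, Enox2 1.29 and Vegfd 1.23. Where it was reversed, they were Itga2 -2.95, Sulf1 -2.68, Il5ra -2.61, Prl8a9 -2.30 and Prl8a6 -2.18 below 0. Above 0 in this class were Trim30a 2.91, Cmpk2 2.27, Ddx60 2.26, Parp14 1.95 and Nkrf 1.74. Where it was created, they were Tslp -4.56, Sprr2e -2.35, Ccng2 -2.19, Defb3 -2.07, S100a7a -2.01, Sprr2h -1.95, Sprr1b -1.51, Sprr2d -1.49 and Nt5e -1.45 below 0. Above 0 in this class were Car6 4.56, Klf15 3.08, Fosl1 2.26, Svop 1.81, B4galnt2 1.76 and Ier2 1.67. Where it changed in size, they were Rbms3 -3.00, Mctp1 -2.93, Mcpt8 -2.27, Glipr2 -2.13, Tnfrsf26 -2.11, Tnip3 -1.88, Krt16 -1.65 and Tfpi -1.42 below 0. Above 0 in this class were Sostdc1 3.42, Tns1 1.54, Limch1 1.38, Zfp358 1.38 and Kcnk5 1.28.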

How the results depend on the processing

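All 149 interaction calls kept their sign in every alternative in which they were tested. With 1 array left out this follows from the 16 choices of 1 array per line. Only other scaling, normalization or pseudocounts could have changed a sign, since the remaining alternatives leave the estimates as they are. The 2 counts below are calls above and below 0, followed by suppressed, reversed, created and changed in size, against 74, 75, 36, 30, 58 and 25. Without scaling of arrays they were 3, 17, 5, 3, 8 and 4, and with a pseudocount of 1 they were 14, 18, 3, 12, 12 and 5. With a pseudocount of 64 they were 339, 159, 145, 53, 241 and 57, and 2 calls could not be sorted. Without the lowest 25% of clusters they were 223, 137, 94, 46, 168 and 51, with 1 unsorted. An intensity trend gave 224, 119, 96, 42, 165 and 40. Clusters with 1 gene gave 505, 191, 184, 65, 335 and 103, with 9 unsorted, and array weights left 3 unsorted. Quantile, centring and robust fits moved no count by over 1.5 times. With 1 array left out, calls above 0 ranged from 3 to 48, below 0 from 5 to 114, suppressed from 0 to 31, reversed from 1 to 31, created from 3 to 80 and changed in size from 4 to 20. The lone array of a line was then assumed to vary like the others. The cause of these shifts was not tested.

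Of the 49 named calls, 8 passed without each array and 13 in all other alternatives. Without scaling 16 passed. Without scaling the 14 interferon genes that fell with α3 alone became 3, the 17 cell cycle genes that fell with α9 became 7, and the interaction calls of the interferon, alarmin, differentiation and ERK lists became 0, 1, 0 and 0.

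Replicate numbers did not pair the arrays. Correlations of same-numbered deviations were -0.199 to 0.0499. The replicate block gave 20 and 38 calls above and below 0, in classes 12, 10, 28 and 8, and kept 54 of 149. Exchanging the numbers in the α3α9 line, chosen after seeing the data, gave 29 and 43. A block on the array set is aliased with α9 and cannot change the interaction. Changes of dim transcripts are limited by signal over background, since 10.02% to 12.01% of values lay under 16.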
